A study of Vitis vinifera and Vitis vinifera
Schisandra chinensis with 13 samples.

Results

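The self-rooted *V. vinifera* 'Hongruibao' plants (Vv) were the controls of a grafting study, and their gene expression is described here on its own, over the 3 Vv RNA-seq libraries among the 6 RNA-seq libraries and 13 samples of the series. They were chosen by label, as the libraries of self-rooted Vv plants in which leaf, phloem and berry RNA was mixed. The 3 replicates were separate, randomly selected plants that carry no transgene and had received no special treatment. They had grown in 1 area for 25 years and were sampled in harvest season. The paper calls these controls both self-rooted and self-grafted, and it counts the 25 years from grafting. Mature leaves, phloem freed of xylem and whole ripe berries were taken from each plant, and 1 library was made from the mixed RNA. The study compared these plants with hybrids of *V. vinifera* scions on *Schisandra chinensis* rootstocks, a contrast that is not taken up here. The replicates are called Vv1, Vv2 and Vv3, and the numbers have no order.

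A leaf cell makes large amounts of a few proteins that capture light and fix CO2, while a ripening grape berry stores sugar, softens its cell walls and builds up pathogenesis-related proteins such as chitinases and thaumatin-like proteins. Phloem carries sugar between them through sieve elements that lack a nucleus, so its RNA comes largely from companion and parenchyma cells. A mixed pool adds these programs to the machinery that every cell uses, such as ribosomes, proteasomes and spliceosomes. In such a pool, a higher share of an organ, more of its cells, more RNA per cell and a higher level of a gene within the organ cannot be told apart.

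Levels are given in FPKM, the fragments assigned to a gene adjusted for the length of its transcript and the size of the library, which makes different genes comparable per length. The table holds 25819 genes without positions on a chromosome, of which 16057 had a Gene Ontology (GO) term and 3606 a KEGG pathway. Of all genes, 2017 had neither a symbol nor a *V. vinifera* locus tag and are given by their assembly ID alone, which starts with MSTRG. Gene names follow the deposited pairing of IDs with values, which a second list of the study does not share, so a set of values is more secure than the name attached to it. In addition, 1307 entries merge more than 1 gene name, and 1472 names occur in more than 1 entry. The number of fragments behind each value is unknown, and a value of 0 is given only as listed at 0, since it can also be a failed estimate. With 3 libraries of 1 group no test was made, and each difference between libraries below is a description.

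The libraries were of similar size on this scale, with summed FPKM from 439752 in Vv3 to 461260.0 in Vv1. Between 21471 and 21971 genes were above 0 in each, 19338 in all 3, and 4912 in 1 or 2 of them, of which 4405 averaged below 1 FPKM. The 1569 genes listed at 0 in every library were 6.08% of the table. The median gene was at 1.92 FPKM in Vv1, 1.92 in Vv2 and 1.55 in Vv3. Scaling factors from the median ratio between libraries were 0.993, 1.06 and 0.950, so the libraries differed little in overall scale. Across genes, which are not independent replicates, log2(FPKM + 1) correlated with r = 0.923 between Vv1 and Vv2, 0.916 between Vv2 and Vv3, and 0.874 between Vv1 and Vv3. Among the 6129 genes that averaged at least 10 FPKM, 23.7% of the table, these values were 0.738, 0.696 and 0.559. In that set 694 genes were at least 4-fold apart between Vv1 and Vv3 and 426 between Vv2 and Vv3, against 252 between Vv1 and Vv2. Vv3 was therefore the library least like the others among well expressed genes, and its part in each result below is given with the result.

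Expression was concentrated in few genes. The 35 genes that averaged 1000 FPKM or more held 31.3% of the summed mean FPKM, and the 538 genes between 100 and 1000 held 26.0%. In contrast, the 10472 genes below 1 FPKM, the largest group by number, held 0.640%. The 305 highest genes together held as much as the rest of the table. The annotation followed the level up to a point, since a KEGG pathway was listed for 6.84% of genes below 1 FPKM, 12.9% between 1 and 10, 26.3% between 10 and 100 and 43.1% between 100 and 1000. At 1000 FPKM and above it was 25.7%, so the very highest genes were annotated less often than the class just beneath them. The median mean level was 8.94 FPKM for genes with a KEGG pathway, 2.03 for all genes and 0.794 for genes with no name.

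**Figure D1:**
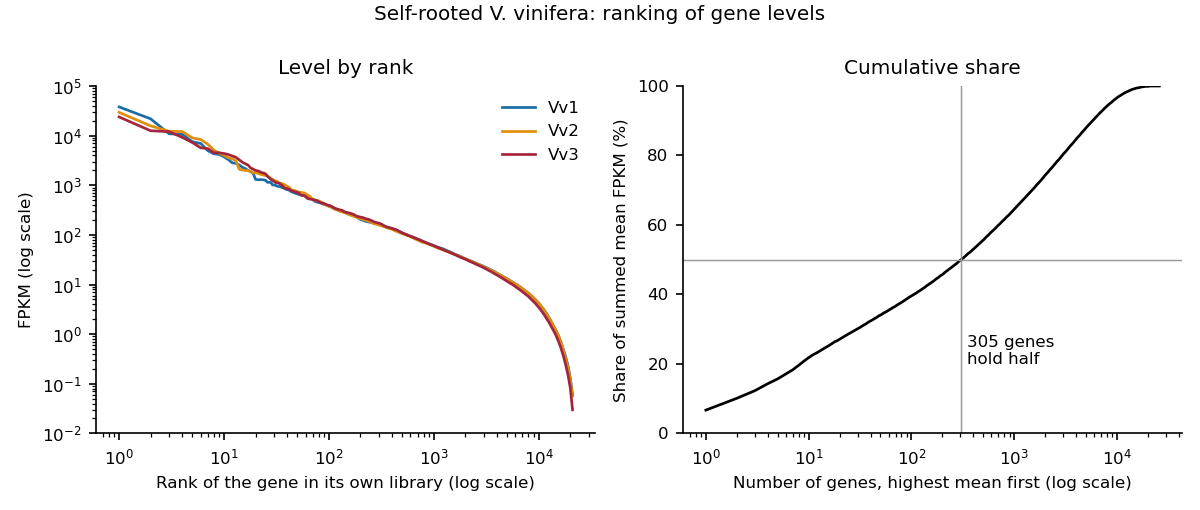
Left, FPKM of each gene (log scale) against its rank in its own library (log scale) for Vv1, Vv2 and Vv3; right, the cumulative share of the summed mean FPKM (percent) against the number of genes counted from the highest (log scale). The 3 ranking curves lie close together although the genes behind them differ, and the crossing lines mark the 305 genes that hold as much as the rest.

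The highest level belonged to a locus without a name, MSTRG.6778, at 37929, 29436 and 23784 FPKM in Vv1, Vv2 and Vv3, which was 6.70% of the summed mean FPKM. It ranked first in every library. A further 3 unnamed loci were among the 25 highest genes. MSTRG.9361 was at 10905, 9004 and 7248 FPKM, MSTRG.22008 at 6952, 5133 and 4362, and MSTRG.13048 at 4320.1, 3409 and 2906. All 4 were highest in Vv1 and lowest in Vv3, with Vv2 at 0.738 to 0.826 of Vv1 and Vv3 at 0.627 to 0.673 of Vv1. The table gives no description or GO term for any of them, so what they encode is not known from these data. Over all genes with no name, the share of summed FPKM ranged from 10.3% in Vv3 to 14.8% in Vv1.

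Ribosomal RNA came next. The gene annotated as small-subunit rRNA (MSTRG.21877) was at 21778, 12249 and 12008 FPKM, so Vv1 was apart from the other pair, while large-subunit rRNA (MSTRG.22391) was at 4171, 6739 and 3238 with Vv2 the highest. The rRNAs of both subunits are cut from 1 precursor in the cell, yet their levels did not follow each other across the 3 libraries. A set of 24 entries, of rRNA and a few plastid or mitochondrial proteins found by name or description, held 5.70%, 4.37% and 3.76% of the summed FPKM in Vv1, Vv2 and Vv3. Other genes of these organelles are not counted in it.

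Among named genes that encode proteins, *MT3* (MSTRG.11371), a metallothionein-like protein that binds copper and zinc, was the highest at 10596, 15714 and 4168 FPKM. Its level in Vv3 was 0.393 of that in Vv1. The small chain of RuBisCO (MSTRG.8755), the enzyme that fixes CO2, was at 4991, 12089 and 814 FPKM, and a RuBisCO activase-type gene (MSTRG.16811), whose product frees the enzyme of bound inhibitors, at 7539, 8345 and 649. Both thus had their lowest value in Vv3, at 0.163 and 0.0861 of the level in Vv1. The photosystem II gene *PSBR* (MSTRG.12012), of the oxygen-evolving complex, was at 2292, 3095 and 827 FPKM, and a fructose-bisphosphate aldolase (MSTRG.13083), of sugar phosphate metabolism, at 3287, 1778 and 208. Glutamine synthetase (MSTRG.8613), which incorporates ammonium into glutamine, was at 2166, 1986 and 534 FPKM. In each of these genes Vv3 was below both other libraries.

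Other highly expressed genes were arranged the opposite way. The uncharacterized gene VIT_19s0090g01370 (MSTRG.11685) was at 2833, 3996 and 12537 FPKM, and an entry that merges 2 neighbouring locus tags (MSTRG.11682) at 943, 1273 and 4522. In both, Vv3 was more than 4 times Vv1, and their tags are close neighbours. A gene annotated to the response to stress (MSTRG.10573) was at 3746, 4432 and 9227 FPKM, and a second gene with that annotation (MSTRG.17766) at 1309, 1226 and 4530.5. A gene annotated to the defense response (MSTRG.952) was at 228, 2032 and 5487 FPKM, so Vv1 and Vv3 differed by 23.9-fold after 1 FPKM was added to each. In all of these Vv3 held the highest level. Uncharacterized MSTRG.18786, at 1019, 2099.9 and 5677 FPKM, and MSTRG.2349, at 312, 735 and 3893, had the same order, as did *ACBP6* (MSTRG.12984), an acyl-CoA-binding protein, at 794, 1147 and 2715. MSTRG.15366, whose product is annotated to bind microtubules and calcium, was at 1294, 1549 and 3660.4 FPKM.

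A chitinase and a water channel were closer across the replicates, while a class IV chitinase differed 2.45-fold. A chitinase (MSTRG.16270) was at 1143, 1602 and 2109 FPKM, and the class IV chitinase of the neighbouring tag (MSTRG.16268) at 717, 1645 and 1759. Chitinases cut chitin of fungal cell walls and are abundant proteins of ripe grape berries. A putative aquaporin (MSTRG.12487), which forms a water channel, was at 1296, 1202 and 1795 FPKM, and uncharacterized MSTRG.19088 at 2749.9, 3584 and 1991. Over the 25 highest genes, which held 28.8% of the summed mean FPKM, the lowest value was in Vv3 in 13, in Vv1 in 10 and in Vv2 in 2. Among the 6129 genes of at least 10 mean FPKM these shares were 39.7%, 39.8% and 20.4%. The highest value was in Vv3 in 12, in Vv1 in 7 and in Vv2 in 6, against 42.3%, 31.8% and 26.0% of the 6129. Vv3 thus stood at one end in all 25, yet on either side. As a result, the composition of the top ranks differed between plants, with 5 genes shared by the top 10 of all 3 libraries, 10 by the top 25, 45 by the top 100 and 277 by the top 500. The 10 genes of highest mean held 24.2% of the summed FPKM in Vv1, 23.3% in Vv2 and 17.7% in Vv3.

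**Figure D2:**
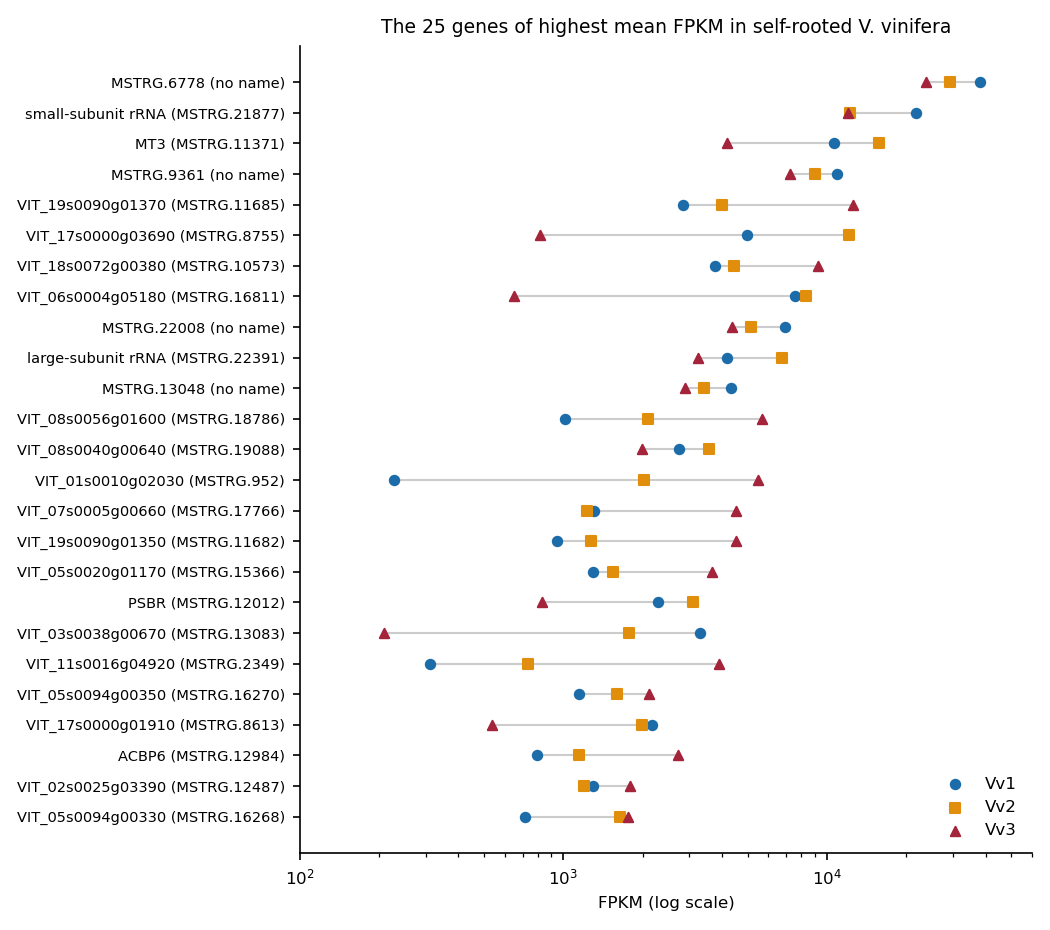
FPKM (log scale) of the 25 genes of highest mean in Vv1 (circle), Vv2 (square) and Vv3 (triangle), ordered by mean; the grey line spans the lowest to the highest library. Unnamed loci and small-subunit rRNA have Vv1 to the right, genes of photosynthesis have Vv3 far to the left, and the stress, defense and several uncharacterized genes have Vv3 to the right.

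Annotated classes were described by the level of their median gene. Of 103 KEGG pathways with at least 15 genes, 94 had a median above that of all genes, and so did 359 of 499 GO terms with at least 20 genes, so an annotation itself went with a higher level. The highest median among pathways was that of carbon fixation, at 84.3 FPKM over 53 genes (quartiles 16.7 and 219), followed by the antenna proteins of photosynthesis, at 75.8 over 16 genes. The proteasome came next, at 42.3 over 44 genes, then glyoxylate and dicarboxylate metabolism, which includes photorespiration, at 38.5 over 60, and the ribosome, at 37.6 over 226. The quartiles of the proteasome, 20.7 and 61.4 FPKM, were much closer than those of the antenna proteins, 17.2 and 436. Photosynthetic classes were therefore led by a few very high genes, and the proteasome was expressed evenly over its subunits. The largest single proteasome gene held 6.45% of its pathway's summed mean FPKM, against 38.5% for the RuBisCO small chain in carbon fixation and 26.7% for the leading antenna gene. By GO term, the highest medians were those of the cytosolic small ribosomal subunit at 46.0 FPKM, the proteasome complex at 44.8, ribosomal small subunit assembly at 44.4, translation elongation factor activity at 41.7 and the cytosolic large ribosomal subunit at 38.2. All 5 belong to the making or removal of proteins.

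Genes of photosynthesis were high on average and lowest in Vv3. The antenna proteins, which bind chlorophyll and pass light energy to the reaction centres, summed to 6483, 5756 and 909 FPKM in Vv1, Vv2 and Vv3. An *LHCB4*-type gene (MSTRG.19450) led them at 1881, 1442 and 194 FPKM, with *LHCA2* (MSTRG.1081) at 1295, 1305 and 234 and *LHCB5* (MSTRG.10998) at 889, 769 and 128. All 13 antenna genes that averaged at least 10 FPKM had their lowest value in Vv3, compared with 39.7% of all 6129 genes at that level. The other photosynthesis genes summed to 8581, 10044 and 4055 FPKM, and 26 of 30 were lowest in Vv3. The exceptions included the highest but one, an entry described as photosystem II protein D1 (MSTRG.4389), at 332, 1089 and 1263 FPKM. D1 is encoded in the plastid in plants, but this entry carries the locus tag VIT_13s0019g02630. Whether its fragments came from the plastid gene is not known from these data. *PSAK* (MSTRG.1626), of photosystem I, was closest over the libraries among the leading genes at 719, 708 and 504.

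Carbon fixation summed to 16886, 22838 and 6773 FPKM. Its leading genes did not share 1 profile. The RuBisCO small chain and the aldolase given above were lowest in Vv3, whereas a glyceraldehyde-3-phosphate dehydrogenase (MSTRG.9315), which KEGG lists in glycolysis as well, was at 1017, 1042 and 1122. Of its 45 genes of at least 10 FPKM, 24 were lowest in Vv3, 16 in Vv1 and 5 in Vv2, against 39.7%, 39.8% and 20.4% of all genes at that level. Photorespiration, which recycles the product of RuBisCO's reaction with oxygen through the peroxisome, had a like order. The catalase *CAT2* (MSTRG.9455), which breaks down hydrogen peroxide, was at 1732, 1567 and 203 FPKM. An FMN-binding oxidase (MSTRG.1579) was at 1141, 1077 and 262, and *AGT* (MSTRG.17256), an alanine-glyoxylate aminotransferase, at 793, 735 and 67.2. These were the 3 highest genes of the peroxisome pathway, which summed to 5716, 5412 and 2386 FPKM, and in each Vv3 was far below Vv1 and Vv2.

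The machinery of protein synthesis was spread over many genes of moderate level and was somewhat higher in Vv3. Ribosomal genes summed to 13522, 12868 and 17087 FPKM, and no gene held more than 3.12% of their mean sum. The highest were the small-subunit protein S27 (MSTRG.1191), at 336, 399 and 621 FPKM, a protein of the large subunit (MSTRG.15813), at 258, 245 and 439.7, and MSTRG.8387, at 294, 199 and 365. Of 163 ribosomal genes of at least 10 FPKM, 115 had their highest value in Vv3, against 42.3% of all genes at that level. The differences were small, and 11 of the 163 met the definition of variable genes given below, as did 13.3% of all genes at that level. Ubiquitin-mediated proteolysis, which tags proteins for the proteasome, summed to 2661, 2844 and 3888 FPKM, and endoplasmic reticulum protein processing to 4711, 4757 and 5923. A gene of both pathways that is annotated to protein polyubiquitination (MSTRG.19298) was at 177, 296 and 536 FPKM. The proteasome itself summed to 2093, 1904 and 2199.6 FPKM, with a regulatory particle subunit (MSTRG.18070) at 127, 120.1 and 152 and the core subunit *PAG1* (MSTRG.19068) at 127, 97.3 and 98.1.

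Energy metabolism lay between these. Oxidative phosphorylation had a median of 23.7 FPKM over 95 genes, and its sum was 4063, 4910.1 and 4087. Its highest gene was an entry annotated as a copper chaperone (MSTRG.11367), which held 20.7% of the mean sum, at 669, 1625 and 409.6 FPKM. The other leading genes were the inorganic pyrophosphatase *AtPPa2* (MSTRG.14795), at 249, 223 and 351, and a proton-translocating pyrophosphatase (MSTRG.5427), at 267, 286 and 112. Glycolysis had a median of 17.8 FPKM over 110 genes and sums of 10058, 9490.1 and 9026. These sums were close even though members moved in opposite ways, as with the aldolase MSTRG.14865 at 800.5, 800.2 and 75.2 and the dehydrogenase MSTRG.992 at 136, 215 and 740.2. Spliceosome genes had a median of 17.7 FPKM, with a gene annotated to bind RNA (MSTRG.9075) highest at 104, 128 and 129. Endocytosis genes had a median of 12.1 FPKM and were led by the small GTPase *ATARFA1B* (MSTRG.6516) at 233, 228 and 326, another small GTPase (MSTRG.604) at 150.4, 186 and 342, and a phospholipase D (MSTRG.20464) at 101, 149 and 177.

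Sugar and redox metabolism had lower medians. Starch and sucrose metabolism had a median of 5.01 FPKM over 109 genes and sums of 2055, 2365 and 3134. A sucrose synthase (MSTRG.17772), which splits sucrose for use in sink tissues, was at 175, 204 and 752 FPKM and held 90.1% of the level of the 5 entries with its KEGG ortholog. A gene that the table annotates to both sucrose synthase and sucrose-phosphate synthase activity (MSTRG.10945), the latter an enzyme of sucrose synthesis, was at 108, 212 and 331, and a UTP-glucose-1-phosphate uridylyltransferase (MSTRG.15011) at 188, 275 and 514. All 3 were lowest in Vv1 and highest in Vv3. Glutathione metabolism had a median of 11.2 FPKM, led by an ascorbate peroxidase (MSTRG.16677) at 758, 413 and 440.4, the glutathione peroxidase *ATGPX6* (MSTRG.12512) at 415, 370.2 and 618 and a glutathione transferase entry (MSTRG.11921) at 126, 185 and 334.

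Gene families differed in how far 1 member dominated. Of 49 KEGG orthologs with at least 5 entries and 100 FPKM in sum, the highest entry exceeded the rest of its family together in 28, and its median share was 55.4%. The chitinases (28 entries, 3089.8 FPKM in sum) were such a case, with 52.4% in MSTRG.16270 and 17 entries below 1 FPKM. The 5 aldolases summed to 2722 FPKM with 64.6% in MSTRG.13083. By contrast, the glutathione transferases were spread over 52 entries that summed to 908 FPKM, of which the highest held 23.7% and 23 were below 1 FPKM.

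The 5 lowest pathway medians were 0.473 FPKM for stilbenoid, 0.506 for cutin, suberine and wax, 0.693 for phenylpropanoid, 0.796 for sesquiterpenoid and triterpenoid, and 0.893 for pentose and glucuronate pathways. All but the last make specialized compounds or surface lipids. The pentose and glucuronate pathway, of carbohydrate metabolism, contains the enzymes that loosen pectin, and its highest members were the uridylyltransferase above, *RPE* (MSTRG.8997), a ribulose-phosphate epimerase, at 464, 430.4 and 76.7 FPKM, and a pectate lyase (MSTRG.9283) at 144, 133 and 397. Flavonoid biosynthesis had a median of 0.962 FPKM over 54 genes, of which 13 were at 10 FPKM or more, close to the 23.7% of all genes. In cutin and wax metabolism *RD20* (MSTRG.15812), in Arabidopsis a caleosin of oil bodies that responds to dehydration, was at 7.18, 6.44 and 86.0 FPKM. Squalene synthase (MSTRG.13074), which makes the precursor of sterols and triterpenes, was at 53.8, 63.3 and 46.0, and a terpene cyclase (MSTRG.20946) at 51.0, 13.6 and 1.58. Pathways of low median thus also held single genes of high level. DNA replication had 5 of 39 genes at 10 FPKM or more, against 23.7% of all genes, led by MSTRG.3121 at 30.2, 20.3 and 21.6, the clamp loader *RFC3* (MSTRG.9591) at 8.45, 11.4 and 17.3 and the polymerase subunit *POLD4* (MSTRG.7591) at 11.3, 14.9 and 10.7.

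The lowest GO terms were laccases and SUMO proteases. Lignin catabolic process and hydroquinone:oxygen oxidoreductase activity, which name the same 50 laccase genes, had a median of 0.0500 FPKM, and none reached 10 FPKM on average. The highest laccase (MSTRG.10539) was at 10.6, 7.05 and 5.99 FPKM, and a second one (MSTRG.11021) at 10.9, 0.461 and 0.0507. The 23 genes annotated as SUMO-specific proteases, which remove the small protein SUMO from others, had a median of 0.0556, with the highest (MSTRG.9308) at 6.36, 7.49 and 8.69. Oxidoreductases of metal ions had a median of 0.0570, and 3 of their 89 genes passed 10 FPKM, the highest (MSTRG.13243) at 16.8, 28.4 and 80.5.

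**Figure D3:**
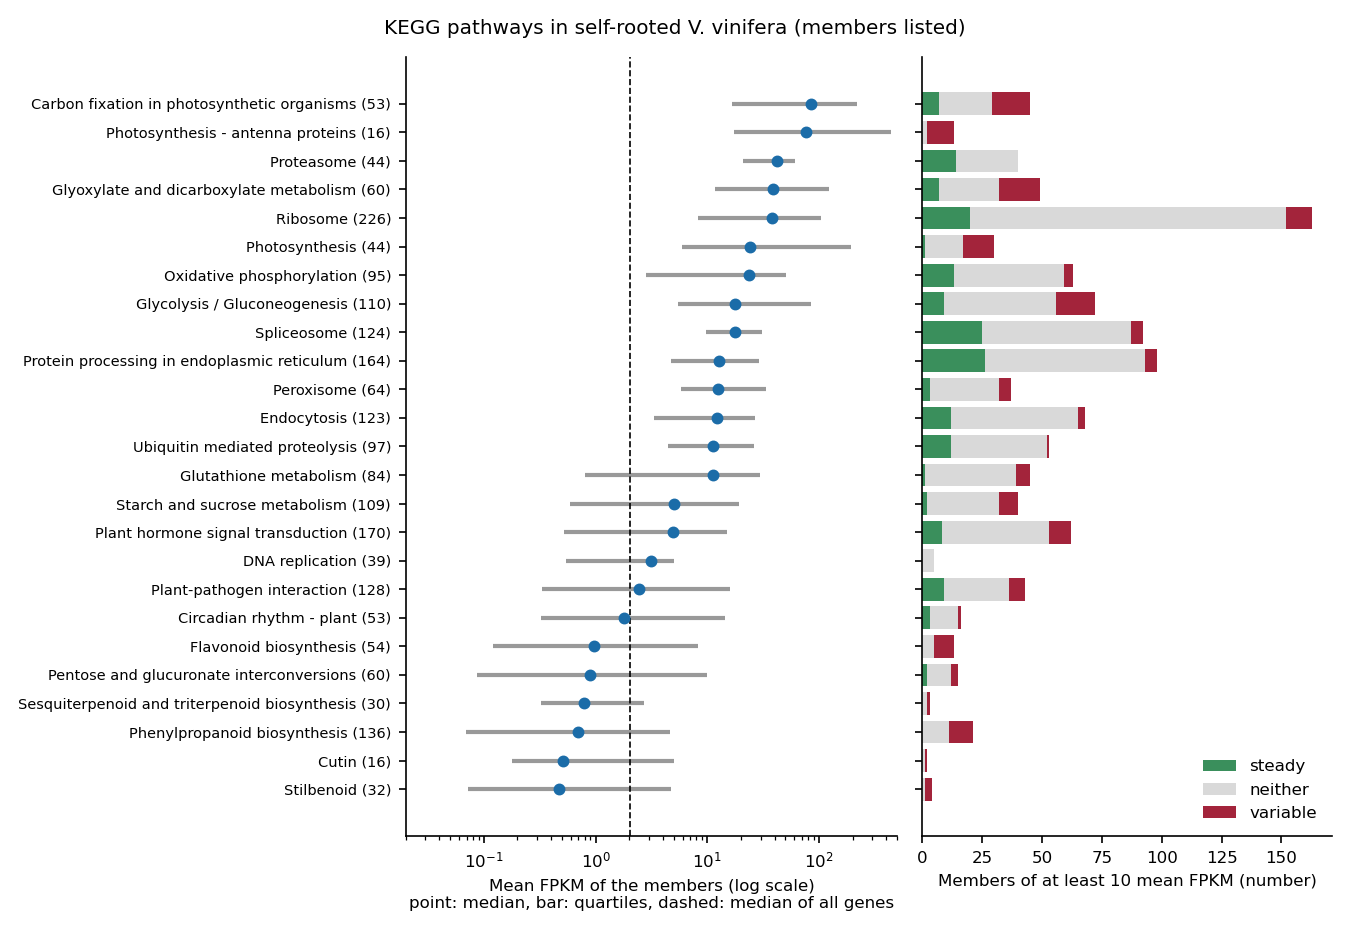
Left, the median (point) and quartiles (bar) of the mean FPKM (log scale) of all listed members of each KEGG pathway, with the number of members in brackets and the median of all genes, 2.03 FPKM, as a dashed line; right, the number of members of at least 10 mean FPKM that were steady, variable or neither over the 3 libraries. Carbon fixation and antenna proteins stand at the top with many variable members, and the proteasome, spliceosome and endoplasmic reticulum pathways have many steady ones.

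How closely the 3 plants agreed was described gene by gene, among the 6129 genes of at least 10 mean FPKM. The median coefficient of variation (CV, the SD over the mean) was 26.0%, with quartiles of 14.6% and 48.3%. A gene was called steady when its CV was at most 10%, and variable when its highest library exceeded its lowest at least 4-fold after 1 FPKM was added to both. Steady genes numbered 840 (13.7%) and variable genes 818 (13.3%). Both counts depend on which libraries are compared and on their number. With 1 library left out, the ratio of highest to lowest can only stay or shrink. The count of steady genes was 1543 without Vv1, 1178 without Vv2 and 2312 without Vv3. That of variable genes was 418 without Vv1, 737 without Vv2 and 277 without Vv3. By level, the median CV was 94.6% below 1 FPKM, 35.1% between 1 and 10, 25.1% between 10 and 100, 35.6% between 100 and 1000 and 59.9% at 1000 and above. Of the 573 genes of at least 100 FPKM, 148 were variable (25.8%) and 45 steady (7.85%). Of the 35 of at least 1000 FPKM, 13 were variable (37.1%) and 1, the dehydrogenase MSTRG.9315, was steady. Above 10 FPKM, the most abundant transcripts were therefore also those that differed most between the plants. Variable genes held 17.7 to 21.5% of the summed FPKM of a library, and steady genes less, with 6.61% in Vv1 and 6.66% in Vv2.

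The variable genes were not spread evenly over the libraries. On log2(FPKM + 1), Vv3 was the library farthest from the other pair in 475 of the 818, below them in 357 (5.82% of the 6129 genes) and above them in 118 (1.93%). Vv1 stood apart in 260, above in 173 (2.82%) and below in 87 (1.42%), and Vv2 in 83. Vv3 below the other pair was hence the most frequent pattern, and Vv1 above the other pair the next.

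**Figure D4:**
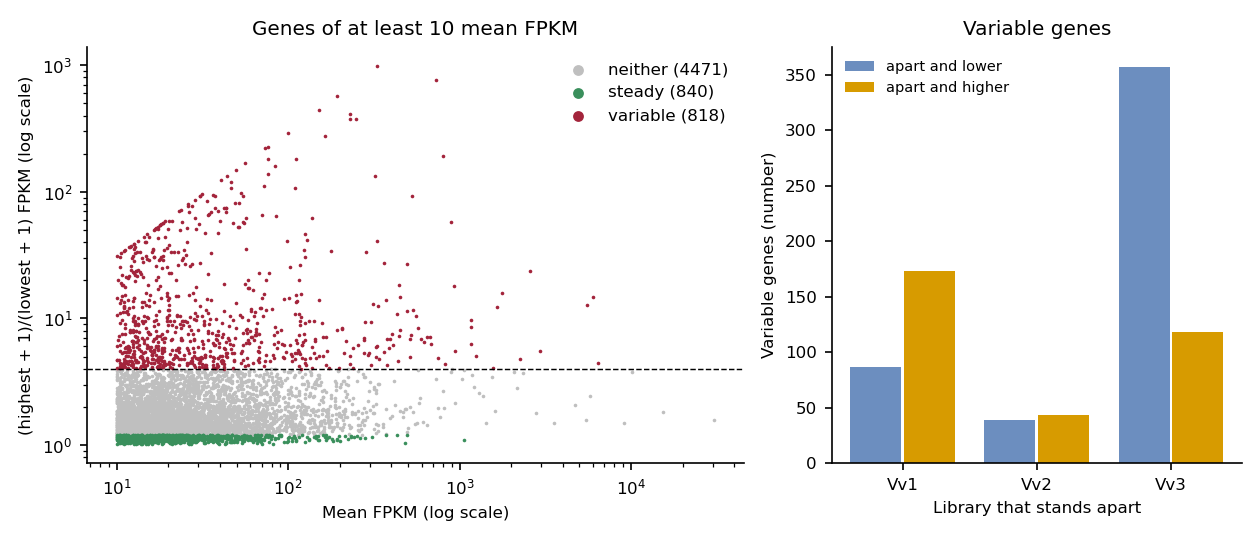
Left, for the 6129 genes of at least 10 mean FPKM, the ratio of the highest to the lowest library after adding 1 FPKM (log scale) against the mean FPKM (log scale), with steady genes in green, variable genes in red and the threshold of 4 as a dashed line; right, the number of variable genes in which each library stands apart, by direction. Variable genes reach across all levels, and Vv3 lying below the other pair is the most frequent pattern, with 357 genes.

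The 12 steadiest genes were of moderate level, with means between 11.1 and 81.3 FPKM. *PMDH1* (MSTRG.22026), a malate dehydrogenase that in Arabidopsis is in the peroxisome, was at 42.5, 42.7 and 42.5 FPKM (CV 0.289%). KEGG lists it in carbon fixation, where the RuBisCO small chain and the aldolase differed several-fold between the same libraries and the dehydrogenase MSTRG.9315 did not. An aminopeptidase (MSTRG.8598) was at 26.5, 26.4 and 26.6, a cellulose synthase (MSTRG.14341) at 39.7, 39.5 and 39.8, and a ribosomal protein gene (MSTRG.13514) at 16.1, 16.0 and 15.9. *QPT* (MSTRG.364), of NAD synthesis, was at 18.5, 18.4 and 18.2, and the phosphofructokinase *PFK4* (MSTRG.7807), of glycolysis, at a mean of 14.9 (CV 0.877%). Those named so far act in NAD, sugar, organic acid, wall and protein metabolism. *PDF2* (MSTRG.15565), here annotated to the prefoldin complex that assists protein folding, was at 15.1, 15.2 and 15.4, and an Hsp70-type chaperone gene (MSTRG.8719) was the highest of the 12 steadiest at 81.6, 82.0 and 80.2. The other 4, MSTRG.13574, MSTRG.15337, MSTRG.6043 and MSTRG.12771, lay between 11.1 and 13.9 FPKM. Since the 12 were picked for the lowest CV among 6129 genes, a low value in 3 libraries is in part a product of that choice. CVs this low also hold only for FPKM as deposited, since the scaling factors (0.993, 1.06 and 0.950) differ by more. Under median-ratio scaling 579 of the 840 steady genes stayed steady.

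By pathway, steady members were frequent in housekeeping machinery. They were 14 of 40 proteasome genes, 25 of 92 spliceosome genes, 26 of 98 genes of endoplasmic reticulum protein processing, 12 of 53 of ubiquitin-mediated proteolysis, 14 of 34 of the citrate cycle and 11 of 28 of aminoacyl-tRNA biosynthesis, against 13.7% of all genes at that level. No proteasome gene was variable, and of the ubiquitin genes 1 was. Variable members were frequent among antenna proteins, with 11 of 13, photosynthesis, with 13 of 30, carbon fixation, with 16 of 45, and glyoxylate metabolism, with 17 of 49, against 13.3% of all genes. The ribosome had 20 steady genes of 163, close to the overall share. Of the 1700 genes with a KEGG pathway at that level, 280 were steady (16.5%) and 191 variable (11.2%), while of the 111 with no name 11 were steady and 19 variable.

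Genes often used as references in RT-qPCR of grapevine ranged from steady to variable. An elongation factor 1-alpha gene (MSTRG.16647), of the delivery of tRNA to the ribosome, was at 322, 397 and 395 FPKM (CV 11.4%), and both others of that kind were steady. MSTRG.16645 was at 337, 297 and 294 (CV 7.85%) and MSTRG.19203 at 219.7, 255 and 224 (CV 8.27%). Among glyceraldehyde-3-phosphate dehydrogenases, MSTRG.9315 was steady with a CV of 5.21% while MSTRG.992, given above, had a CV of 90.2%. The name of an enzyme thus did not tell whether its gene was steady. An entry that merges a locus tag with *UBQ14* (MSTRG.11571), in Arabidopsis a polyubiquitin gene, was at 1001, 697 and 598 FPKM (CV 27.5%). Among tubulins, of microtubules, a beta chain (MSTRG.1698) was at 19.2, 19.3 and 21.1 (CV 5.51%), an alpha chain (MSTRG.13679) at 37.9, 53.8 and 104, and *TUB8* (MSTRG.8086) at 25.1, 4.47 and 18.3. Of the 27 entries matched to this list 13 averaged at least 10 FPKM, of which 4 were steady and 2 variable, against 13.7% and 13.3% of all genes at that level. Actin, SAND, TIP41 and PP2A were not matched by symbol or ortholog in the table.

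The largest ratios belonged mostly to genes listed at 0 in a library. Of the 6129 genes, 90 were listed at 0 in at least 1 library, 58 in 1 and 32 in 2 of them, and all 90 were variable by construction of the ratio. They were listed at 0 in Vv1 in 49 cases, in Vv2 in 31 and in Vv3 in 42. A membrane protein gene (MSTRG.13122) was at 986 FPKM in Vv2 and listed at 0 in Vv1 and Vv3, and uncharacterized MSTRG.15463 at 219.8 in Vv2 and listed at 0 in the other pair. An ammonium transporter (MSTRG.16369) was at 169 in Vv1 and listed at 0 in Vv2 and Vv3. For each of these, 1 library alone had a value above 0. *HIS1-3* (MSTRG.14874), a linker histone that in Arabidopsis responds to water deficit, was at 374 and 377 in Vv1 and Vv2 and listed at 0 in Vv3, as were a large-subunit ribosomal gene (MSTRG.21460), at 182 and 153, and MSTRG.16888, at 375 and 315. A gene annotated to systemic acquired resistance (MSTRG.246), the spread of pathogen defense through a plant, was at 181, 47.0 and listed at 0. MSTRG.12302 was at 409.7 in Vv1 and 280.3 in Vv3 but listed at 0 in Vv2, and MSTRG.13559 at 568 in Vv1 and 15.7 in Vv3 but listed at 0 in Vv2. A calcium-binding protein gene (MSTRG.8658) was at 15.7 in Vv2 and 442 in Vv3 and listed at 0 in Vv1. A well expressed gene listed at 0 in 1 plant thus occurred for each of the 3 libraries.

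Large ratios also occurred in genes above 0 in all libraries, which made up 728 of the 818. *NTL* (MSTRG.1238), annotated to transport, was at 1.34, 395 and 1794 FPKM, and an acyltransferase (MSTRG.20813) at 7.71, 717 and 1683. Both were lowest in Vv1 and highest in Vv3, and they ranked 49 and 44 by mean. MSTRG.201 was at 0.788, 0.819 and 490.0, and MSTRG.4394 at 0.0267, 0.157 and 229.8, so both were found almost in Vv3 alone. In the opposite direction, MSTRG.20185, annotated to vacuolar transport, was at 292, 0.00499 and 6.97.

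The organs named on the labels were looked for by lists of marker genes. Leaf markers were plainly present. Of 11 markers 10 were matched, by 16 entries that summed to 18962, 26680.4 and 2325 FPKM in Vv1, Vv2 and Vv3. Vv3 was at 0.123 of Vv1 and 0.0871 of Vv2. Of the 11 entries of at least 10 FPKM, 10 were variable and all 11 were lowest in Vv3, against 13.3% and 39.7% of all genes at that level. Besides the genes given above, they included *PRK* (MSTRG.12890), the phosphoribulokinase that renews the acceptor of CO2, at 276, 266 and 33.2, *SBPASE* (MSTRG.4446), a phosphatase of the same cycle, at 379, 377 and 70.3, and *GAPB* (MSTRG.9430), of the plastid dehydrogenase, at 956, 923 and 152. In these 3 Vv1 and Vv2 were nearly equal. Low entries were the oxygen-evolving protein PSBO, at 3.33, 5.03 and 1.69 (MSTRG.21380) and 3.74, 3.59 and 0.794 (MSTRG.10156), and PSAD (MSTRG.17566), at 14.4 in Vv2 and listed at 0 in the other pair. A leaf antenna gene (MSTRG.17888) was listed at 0 throughout. *CAB1* was not matched.

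Ripe berry markers had another order. Of 15 markers 8 were matched, by 53 entries that summed to 947, 2684 and 3537 FPKM. Of these entries 38 were matched as pectinesterases, and the sums came mostly from the class IV chitinase and the entry MSTRG.3216. Of 8 entries of at least 10 FPKM, 7 were lowest in Vv1 and 6 were variable, against 39.8% and 13.3% of all genes at that level. The class IV chitinase given above was the highest of them. An entry described as ripening-related (MSTRG.3216), which merges 3 locus tags of which 1 encodes a NEDD8-activating enzyme, was at 10.7, 494 and 1079 FPKM, and a gene described as ripening-induced (MSTRG.15765) was at 92.3 and 137 in Vv2 and Vv3 and listed at 0 in Vv1. Both thus separated Vv1 from the other plants. The polygalacturonase PG1 (MSTRG.19949), which cuts pectin, was at 29.6, 32.7 and 114, a pectinesterase (MSTRG.3989) at 14.3, 58.2 and 103 and *TMT2* (MSTRG.13270), which moves hexoses into the vacuole, at 4.62, 16.0 and 31.4. An entry that merges the expansin *ATEXPA11* with a second locus tag (MSTRG.9531) was at 67.4, 277 and 174, and *ATEXPA14* (MSTRG.8981) at 15.6, 1.46 and 65.0. Expansins loosen cell walls, and these did not share 1 profile. The glucosyltransferase matched to UFGT (MSTRG.7677), the last step to anthocyanins in black grapes, was low at 8.30, 2.08 and 2.84, and the osmotin gene *ATOSM34* was listed at 0 in all 3. *MYBA1*, *MYBA2*, *ADH2* and *GIN1* were not matched.

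The other lists gave little. For phloem, 2 of 11 markers were matched, *APL* (MSTRG.12182), in Arabidopsis a regulator of phloem identity, at 2.29, 3.20 and 1.58 FPKM, and *NAKR1* (MSTRG.19228), in Arabidopsis a metal-binding protein of the phloem, at 4.68, 2.06 and 5.50. Their sums of 6.97, 5.26 and 7.08 FPKM were similar in the 3 plants, but the markers of sieve elements and of sucrose loading had no symbol in the table, so the phloem share cannot be judged from them. For seed, 3 oleosin entries summed to 2.56, 2.23 and 0.563 FPKM, and albumin, globulin, vicilin and LEA proteins were not matched, so seed transcripts were at or near 0 in what could be matched. For lignified tissue, 4 entries summed to 10.3, 9.91 and 10.7 FPKM, of which *IRX9-L* (MSTRG.9887), of xylan synthesis, made up 7.72, 7.80 and 9.59, and *CESA4* (MSTRG.18009), of secondary walls, 1.25, 0.948 and 0.282.

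**Figure D5:**
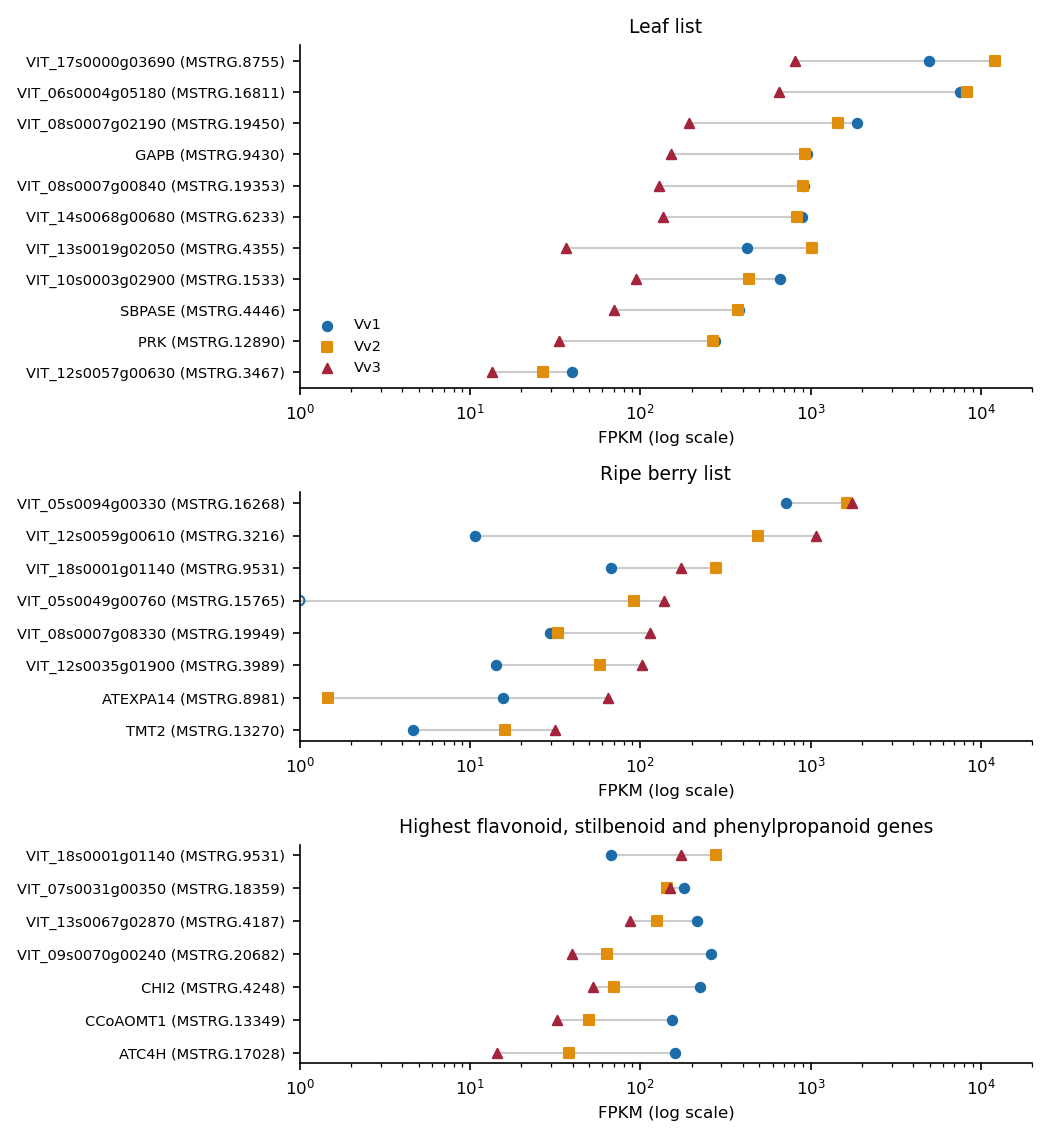
FPKM (log scale) in Vv1 (circle), Vv2 (square) and Vv3 (triangle) of the entries of at least 10 mean FPKM in the leaf list and the ripe berry list, and of the highest flavonoid, stilbenoid and phenylpropanoid genes; an open circle at the left edge marks a value listed at 0. Vv3 is the leftmost point in all 11 leaf entries, Vv1 in 7 of the 8 berry entries, and most phenylpropanoid genes have Vv1 to the right.

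The leaf list was lower in Vv3, as were the antenna, photosynthesis, carbon fixation, glyoxylate and peroxisome genes. All of these classes but the peroxisome share genes with the list, so their likeness to it is partly that of the same genes. The berry list was lower in Vv1. The part of unequal shares of leaf and berry RNA in these differences was not tested. The leaf list also differed between Vv1 and Vv2, mostly by the RuBisCO small chain, while 3 of its Calvin cycle genes were nearly equal there.

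Phenylpropanoid metabolism, which turns phenylalanine into precursors of lignin, stilbenes and flavonoids, had the library order of neither list. Most of its leading genes were highest in Vv1 and lowest in Vv3. The leaf list was also lowest in Vv3, while the berry list was lowest in Vv1 and highest in Vv3. *ATC4H* (MSTRG.17028), cinnamate 4-hydroxylase at its start, was at 161, 38.4 and 14.5 FPKM. *CCoAOMT1* (MSTRG.13349), a methyltransferase of its middle part, was at 154, 49.7 and 32.6, and a gene of the same pathway annotated to bind a coenzyme (MSTRG.20682) at 262, 63.8 and 39.6. In each, Vv1 was at least 3 times as high as both other plants. The chalcone isomerase family gene *CHI2* (MSTRG.4248), of the first flavonoid steps, was at 224, 70.4 and 52.9, and a second member of that family (MSTRG.4187) at 214, 125 and 87.5. An O-methyltransferase that KEGG places in several of these pathways (MSTRG.18359) differed less, at 179.8, 143 and 150.4. All 13 flavonoid genes of at least 10 FPKM were highest in Vv1, compared with 31.8% of all genes at that level, and 8 were variable. The flavonoid genes summed to 1715, 773 and 517 FPKM and the stilbenoid genes, which share members with them, to 665, 311 and 235. Of 21 phenylpropanoid genes of at least 10 FPKM 10 were variable, against 13.3% of all genes at that level, and in 8 of these 10 Vv1 stood apart by higher values, as it did in 173 of all 818 variable genes. The merged expansin entry MSTRG.9531, which KEGG also lists there, was the highest of the pathway and had its lowest value in Vv1. With Vv1 left out, the flavonoid genes lay at 773 and 517 FPKM in Vv2 and Vv3, and no library beside Vv1 held this excess.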

How the data were processed

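The authors aligned paired-end reads with HISAT against the *V. vinifera* genome (build: not given in the sources used here). They assembled and quantified transcripts with StringTie. The submitters' processing notes name both programs without a version, while the paper gives one for StringTie. The deposited table holds 1 FPKM value per gene and library, computed by the authors over a transcriptome merged from all libraries. The 3 Vv columns were used as deposited, and the 3 columns of per-sample values from the hybrids were not used. Files on miRNAs and the degradome were not used here.

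Genes were ranked by mean FPKM over the 3 libraries. Steady genes had a coefficient of variation of at most 10% and variable genes a (highest + 1)/(lowest + 1) ratio of at least 4, both among genes of at least 10 mean FPKM. Classes were KEGG pathways of at least 15 and GO terms of at least 20 listed genes. Marker lists (leaf, phloem, ripe berry, seed, lignified tissue, RT-qPCR references) were matched by symbol, description, GO term or KEGG ortholog. The members and lists were chosen with earlier results of these data known. Named genes were the 25 of highest mean, the 12 of lowest coefficient of variation, the 15 of highest ratio, the 3 highest of each class in a list of 21 KEGG pathways and of the 5 highest and lowest classes, and the marker and reference genes. Python 3.11.15 with pandas 2.3.3, numpy 2.4.6 and matplotlib 3.10.9 was used. The functions were run on simulated data with known variable genes and far less noise than these libraries have, which checks the code only. None of the 20856 locus tags was found in the RefSeq gene table used here, so no sequences are shown. Alternatives were other scalings, filters, pseudocounts and measures of spread, and leaving out each library.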

Additional observations from a re-analysis of the deposited data

How the results depend on the processing

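No paired analysis was possible because only 1 group was described and no test was run. Depth is unknown for FPKM, so the precision of single values, above all low ones, cannot be given. Genes detected numbered 12605 at a minimum of 1 FPKM in each library and 7236 at 5. After rescaling each library to a sum of 1000000, 1400 genes reached 100 FPKM, steady genes numbered 1276 (717 of them steady before) and variable genes 1292 (814 shared), since rescaling raises all levels past the fixed minimum. Median-ratio scaling gave 778 steady genes (579 of them steady before) and 803 variable genes (779 shared). With a minimum mean of 1 FPKM there were 1522 steady and 1794 variable genes, and with 50 there were 130 and 243. Spearman's coefficient between Vv1 and Vv2 was 0.894. Leaving out 1 library gave 1178 to 2312 steady and 277 to 737 variable genes, the highest steady and the lowest variable count without Vv3. The other leave-one-out ranges were 20.5 to 23.8% for the 10 highest genes, 285 to 313 genes holding as much as the rest, 556 to 570 genes of at least 100 FPKM, 93 to 95 pathways above the median of all genes, and sums of 10643 to 22821 FPKM for leaf, 6.11 to 7.02 for phloem, 1815 to 3110.5 for ripe berry, 1.40 to 2.40 for seed, 10.1 to 10.5 for lignified tissue and 3219 to 3497 for reference genes. These values are levels, counts and correlations within 1 group, so a change of direction was not defined for them. Of 105 medians of listed pathways under alternatives 24 moved by more than the spread between libraries. Most of these moves came when genes below 1 FPKM were left out. All 916 values of named genes stayed within that spread, 229 of them under median-ratio scaling. For the others 1 library was left out, which cannot move the mean of a gene past its SD, so those checks could not fail. The median-ratio factors average close to 1 and barely move a mean over 3 libraries, so the 229 could hardly fail either.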

Other observations

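Plant hormone signal transduction had a median of 4.96 FPKM over 170 genes, above the 2.03 of all genes. Of its 62 genes that averaged at least 10 FPKM, 8 were steady and 9 variable, close to the 13.7% and 13.3% of all genes at that level. Its 3 highest genes were an entry annotated to jasmonic acid signaling (MSTRG.439), at 161, 152 and 92.4 FPKM in Vv1, Vv2 and Vv3, *BIN2* (MSTRG.1426), in Arabidopsis a kinase of brassinosteroid signaling, at 87.4, 119 and 176, and a gene of the Ethylene insensitive 3-like family (MSTRG.4799), at 127, 197 and 13.3. Each had another library at the top. Of 57 genes annotated to the response to auxin, 14 were listed at 0 in all libraries (24.6%), against 6.08% of all genes. The circadian pathway had a median of 1.80 FPKM over 53 genes. A DNA-binding entry of it that merges neighbouring tags (MSTRG.7265) was at 134, 133 and 34.7 FPKM, the blue-light receptor *CRY1* (MSTRG.9725) at 78.5, 80.0 and 25.5, and a protein kinase (MSTRG.18287) at 74.3, 67.2 and 67.4. The kinase was steady (CV 5.76%), whereas the other pair had Vv3 below Vv1 and Vv2, as the leaf list had (18962, 26680.4 and 2325 FPKM in sum), and the part of the leaf share in this was not tested.

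Genes of plant-pathogen interaction had a median of 2.47 FPKM over 128 genes, with 9 steady and 7 variable among 43 of at least 10 FPKM, against 13.7% and 13.3% of all genes at that level. A calcium-binding gene (MSTRG.9365) led them at 237, 203 and 209 FPKM (CV 8.42%), and another (MSTRG.18707) was at 197, 111 and 48.2. Both belong to calcium signaling, yet 1 was steady and 1 variable. In 5 of the 7 variable genes Vv1 stood apart by higher values, as it did in 173 of all 818 variable genes. Of the 38 genes of the GO term extracellular region that averaged at least 10 FPKM, 18 were variable, against 13.3% of all genes, and in 12 of them Vv1 stood apart by higher and in 5 by lower values, as in 173 and 87 of all 818 variable genes.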
